A study of Arabidopsis thaliana with 18 samples.

Results

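Germin-like genes form a tandem cluster on chromosome 5 of Arabidopsis thaliana, and 10 loci of it were taken as listed: AT5G38910, AT5G38930, AT5G38940, AT5G38960, AT5G39110, AT5G39120, AT5G39130, AT5G39150, AT5G39160 and AT5G39180. Of these, 9 had a row of their own (a row with exactly 1 gene in the platform's annotation) among 16722 such rows, and AT5G39160 was not analysed here. No locus had a further row of its own, and 0 rows that name several genes held one of the loci. In the order of the RefSeq gene table, AT5G38910 to AT5G38960 follow each other with 0 or 1 gene between them, 19 genes lie between AT5G38960 and AT5G39110, and AT5G39110, AT5G39120 and AT5G39130 are direct neighbours. The first 4 loci are called the upper block here and the others the lower block.

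Germins and germin-like proteins are small secreted glycoproteins of the cupin family, which share a barrel fold that binds a metal ion. Cereal germins are known as oxalate oxidases that release hydrogen peroxide in the cell wall, and several germin-like proteins of other plants have superoxide dismutase activity. The family is known for induction in defence and for expression in walls of growing tissues, and its genes often lie in tandem arrays. No separate role is given below to single loci, since none is annotated in the tables used.

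RNA was measured in root tips of Arabidopsis seedlings of wild type, the mutant rlk7-3 and the mutant labelled puchi-2, on 18 single-colour arrays. Seedlings grown for 5 days were moved for 3 h to medium that held either no peptide (control) or 1 µM TOLS2, a small secreted signalling peptide of the root, and about 80 tips of 1 cm were pooled for each array. RLK7 is a receptor kinase that perceives peptides of this kind, and PUCHI encodes a transcription factor with an AP2/ERF domain that acts in lateral root formation. Each of the 6 groups held 3 arrays, called biological replicates in the labels, which do not say whether these were separate sowings, so p-values measure the spread between these pools. The labels give the alleles by name only, without their lesions.

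The genotype labels could be checked in part. The PUCHI signal on puchi-2 arrays was 5.31 ± 0.23 in control (log2, SD, n = 3) beside 4.56 ± 0.37 in wild type (limma adjusted p = 0.232), so it was not lower than in wild type, and no row was named for RLK7. The arrays of that genotype are therefore given as labelled puchi-2. PUCHI changed with TOLS2 by 1.96 in wild type (limma adjusted p = 3.63e-06), 0.16 in rlk7-3 (0.856) and 0.94 on arrays labelled puchi-2 (0.0047). Its response differed from that of wild type by −1.8 in rlk7-3 (adjusted p = 0.00083) and by −1.02, not called, on arrays labelled puchi-2 (0.709). Of the tissue markers, 2 of 4 root hair genes and 1 of 5 shoot genes had rows: the root hair expansin genes EXPA7 (8.75 to 9.18 over all arrays) and EXPA18 (10.85 to 11.21) were bright, and the endodermis, root cap, stele, stem cell and shoot epidermis lists had 0 measured members. The shoot gene RCA, for rubisco activase, had group means of 7.95 and 7.3 in wild type (control and TOLS2, adjusted p = 0.0355), 7.77 and 7.80 in rlk7-3, and 7.64 and 7.14 on arrays labelled puchi-2, and its part in the results was not tested. In pooled tips, fewer cells of a type and less RNA per cell cannot be told apart.

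Without peptide, the rows of the cluster differed widely in signal. Levels are log2 signals after RMA, and since the probes of each row bind with their own strength, a level shows how bright a row is and not how much of one transcript there is beside another. In wild-type control tips AT5G38910 stood at 8.37 ± 0.56 (SD, n = 3), brighter than 78.3% of tested rows, and AT5G39110 at 6.42 ± 0.30, brighter than 54.3%. AT5G38940, AT5G39120 and AT5G38960 stood at 4.89 ± 0.18, 4.81 ± 0.28 and 4.74 ± 0.14, and AT5G38930 at 3.81 ± 0.34. AT5G39130 stood at 2.49 ± 0.16, and AT5G39150 (1.69 ± 0.25) and AT5G39180 (1.44 ± 0.38) were brighter than only 1.5% and 0.4% of rows. The upper block thus held a bright row beside middling ones, and the lower block ran from a middling row to the dimmest.

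The level without peptide did not pass the test between genotypes for any of the 9 genes. Limma called 0 of 9 in rlk7-3 against wild type, where 0.0515% of all rows were called, and 0 of 9 in puchi-2 against wild type, where 0.0172% were called (0 of 9 at an unadjusted p under 0.05 in both). AT5G38940 was 0.70 higher in rlk7-3 (95% interval 0.00 to 1.40, adjusted p = 0.676) and 0.49 higher in puchi-2 (−0.22 to 1.19, adjusted p = 0.889), and in both mutants each control array lay above each wild-type control array. AT5G39110 was lower by 0.80 in both, with 95% intervals of −1.96 to 0.36 and −1.97 to 0.36 (adjusted p = 0.802 and 0.889), and its mutant control arrays (5.25 to 6.11) all lay below those of wild type (6.13 to 6.72). AT5G39150 was likewise lower in rlk7-3 without overlap (−0.46, adjusted p = 0.754). Control arrays thus did not overlap for 3 of 9 genes in rlk7-3 and 2 of 9 in puchi-2, beside 15.4% and 13.2% of all rows. The median difference of the 9 genes was −0.21 in rlk7-3 and −0.03 in puchi-2, beside −0.02 and 0.00 over all rows. The intervals above rest on a spread pooled over control and TOLS2 arrays. Among controls the SD was smaller for AT5G38940 (0.15 beside 0.61 with TOLS2) and AT5G39110 (0.31 beside 0.99). Only AT5G38960 of the 9 genes had the larger SD among controls (0.21 beside 0.19). With only the compared arrays, AT5G38940 and AT5G39110 had limma adjusted p = 0.305 and 0.34 in rlk7-3. In puchi-2 these were 0.591 and 0.629, so neither gene was called.

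**Figure D1:**
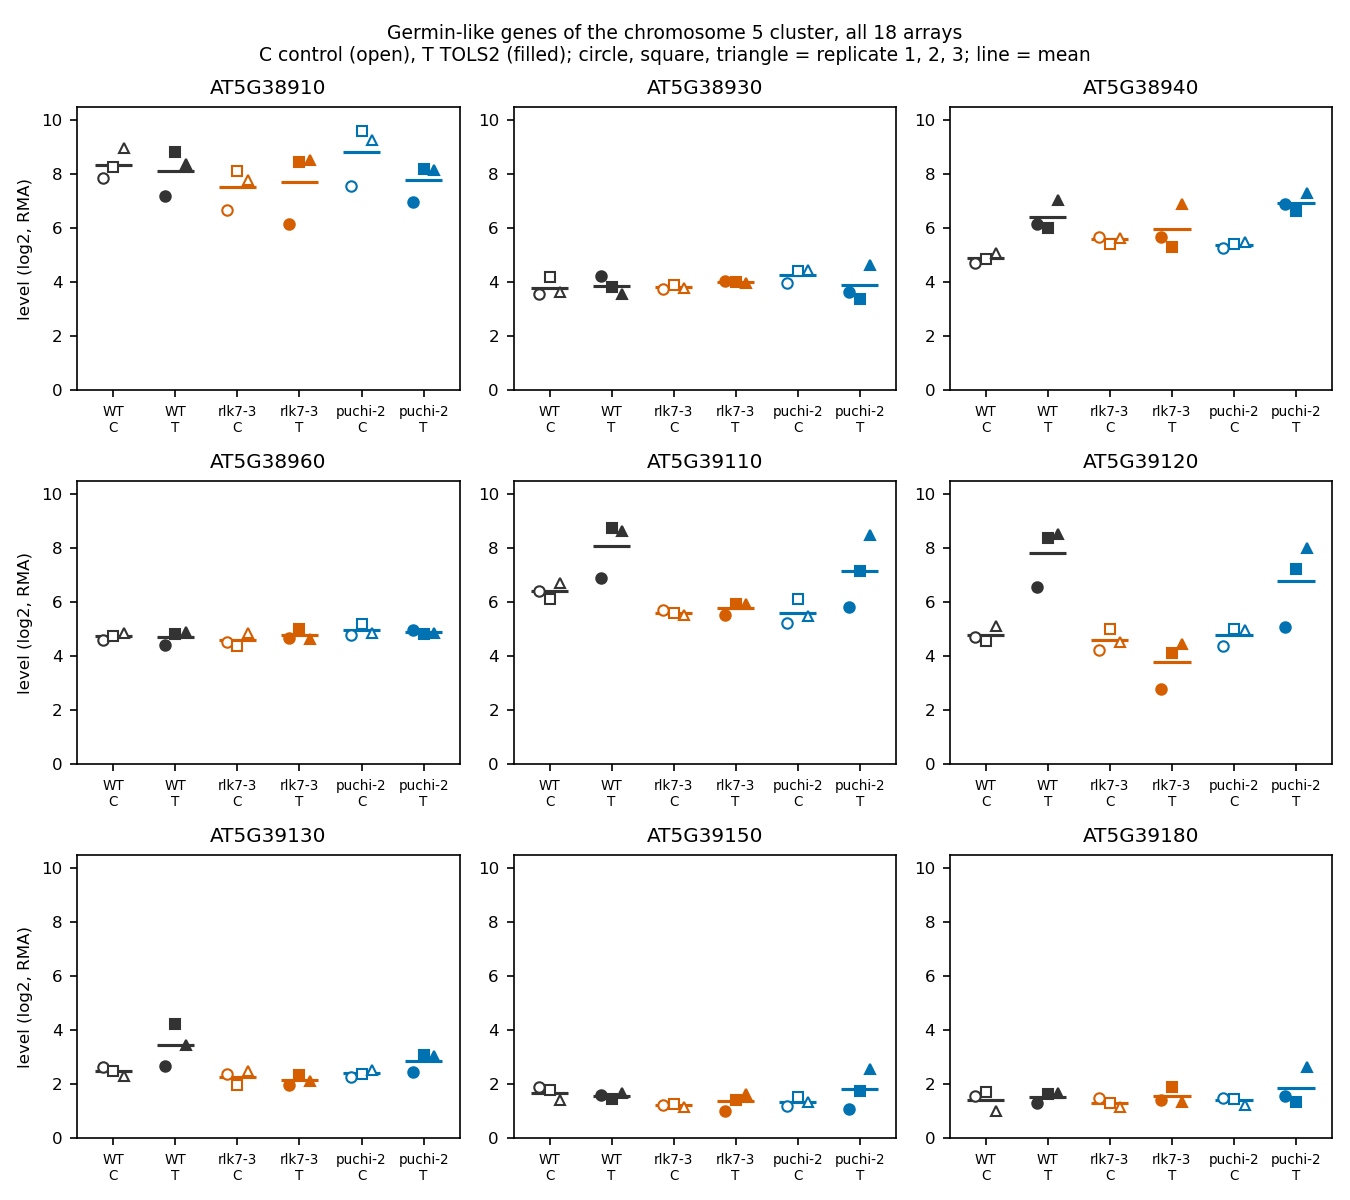
Level of each of the 9 genes (vertical axis, log2 after RMA, same scale in all panels) on all 18 arrays, by genotype and treatment (horizontal axis, C control and T TOLS2); symbols mark the replicate number and lines the mean of 3 arrays. AT5G39120 reached 8.38 and 8.54 on replicates 2 and 3 of wild type with TOLS2 but 6.59 on replicate 1, and AT5G38910 was lowest on replicate 1 in all 6 groups.

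TOLS2 raised 2 of the 9 genes in wild-type tips, 1 in each block, while their neighbours were not called, with differences from −0.02 to 1.67. AT5G39120 in the lower block rose 8.19-fold and AT5G38940 in the upper block 2.86-fold. A gene is called at an adjusted p under 0.05 in limma over 17481 rows, of which 1.84% were called in this comparison. The median change was 0.11 over the 9 genes and −0.04 over all rows, and in 4 of the 9 no treated array lay within the range of the controls, which held for 18.7% of all rows. An unadjusted p under 0.05 was found for 4 of the 9 genes and for 2088 of the 17481 rows.

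The control arrays of AT5G39120 in wild type read 4.72, 4.58 and 5.12, and those with TOLS2 read 6.59, 8.38 and 8.54. All treated arrays lay above all controls, but the first of them was the lowest, 1.78 below the next. The change was 3.03 (log2, SE 0.65, 95% interval 1.64 to 4.42, n = 3, adjusted p = 0.025), a fold between 3.13 and 21.4. This call was lost when any 1 wild-type array other than TOLS2 replicate 1 was left out (adjusted p from 0.0612 to 0.128). Without TOLS2 replicate 1 the change was 3.66 (adjusted p = 0.0108). From the 6 wild-type arrays alone the adjusted p was 0.0521, and over 15 alternatives it ran from 0.000936 to 0.128.

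AT5G38940 read 4.73, 4.86 and 5.09 in control and 6.16, 6.02 and 7.05 with TOLS2, also without overlap. It rose by 1.52 (SE 0.33, 95% interval 0.82 to 2.22, n = 3, adjusted p = 0.0268). The smallest gap between a treated and a control array was 0.93, so the separation did not rest on 1 array, although the call did: it was lost without any 1 of the control arrays or TOLS2 replicate 3 (adjusted p from 0.0601 to 0.135). It was also lost with the 6 wild-type arrays alone (0.0652), and over 15 alternatives the adjusted p ran from 0.00351 to 0.215.

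The neighbours on either side of AT5G39120 had higher means with TOLS2 that were not called. AT5G39110 read 6.41, 6.13 and 6.72 in control and 6.89, 8.75 and 8.64 with TOLS2, a difference of 1.67 (95% interval 0.51 to 2.83, adjusted p = 0.173). AT5G39130 read 2.65, 2.51 and 2.32 in control and 2.68, 4.25 and 3.45 with TOLS2, a difference of 0.96 (0.35 to 1.58, adjusted p = 0.131). TOLS2 replicate 1 lay only 0.17 above the highest control array for AT5G39110 and 0.03 for AT5G39130, while the other TOLS2 arrays lay further above. Without that array AT5G39110 changed by 2.28 (adjusted p = 0.0411) and AT5G39130 by 1.35 (adjusted p = 0.00949), so both were then called. TOLS2 replicate 1 was the lowest treated array of both genes, so leaving it out had to raise the estimates. Without any other single wild-type array neither gene was called (limma adjusted p from 0.255 to 0.484 and from 0.197 to 0.421). Over all alternatives their adjusted p ran from 0.0223 to 0.484 and from 0.00949 to 0.421.

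The other 5 genes were not called in wild type, and their intervals show what size of change the data leave possible. The difference was −0.02 for AT5G38960 (95% interval −0.35 to 0.30) and 0.06 for AT5G38930, the direct neighbour of AT5G38940 (−0.50 to 0.62). It was −0.11 for AT5G39150 (−0.68 to 0.46) and 0.11 for AT5G39180 (−0.48 to 0.70), both among the dimmest rows. AT5G38910 gave −0.22, with a wide interval of −1.67 to 1.23. The adjusted p of these 5 genes ran from 0.93 to 0.977.

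**Figure D2:**
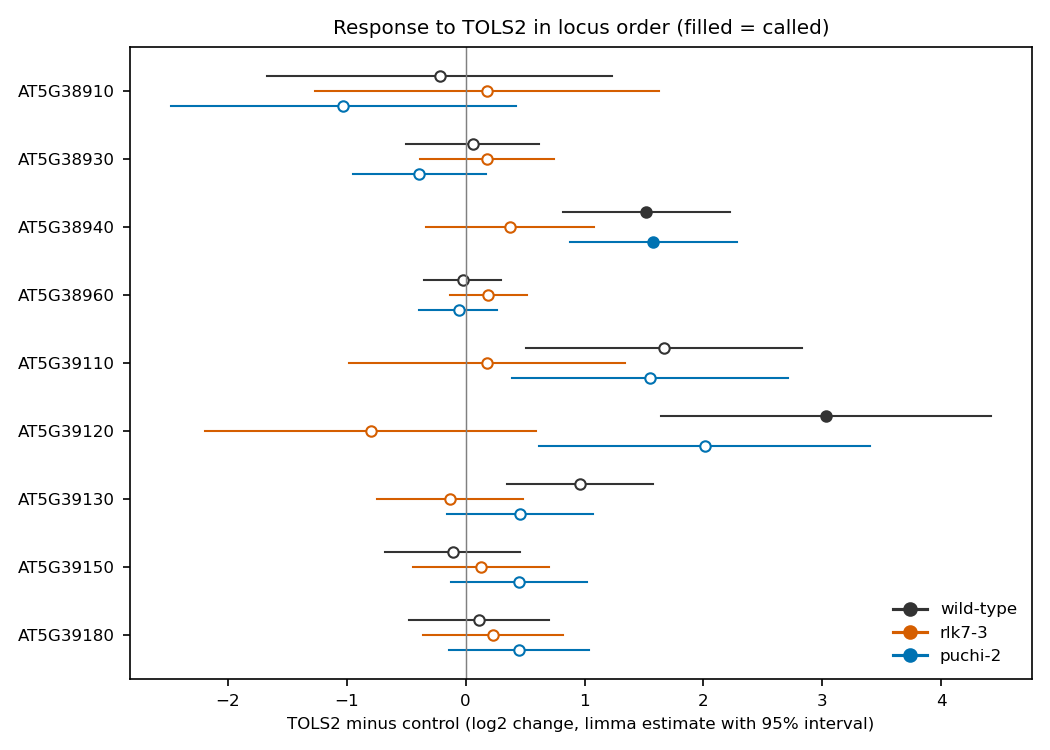
Change with TOLS2 (horizontal axis, log2, limma estimate with its 95% interval, n = 3 arrays per group) for the 9 genes in locus order (vertical axis) and 3 genotypes; filled points are called. AT5G39120 (3.03) and AT5G38940 (1.52) were called in wild type and AT5G38940 (1.58) on arrays labelled puchi-2.

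In rlk7-3, limma called 0 of the 9 genes with TOLS2, where 0.00572% of all rows were called, and 0 of the 9 had an unadjusted p under 0.05. AT5G39120 read 4.24, 5.01 and 4.53 in control and 2.79, 4.13 and 4.46 with TOLS2. Its mean was thus lower with the peptide, by 0.80 with an interval of −2.19 to 0.59 (adjusted p = 0.824), and the array lowest of all 18 was replicate 1 with TOLS2. The difference was 0.18 for AT5G39110 (−0.98 to 1.34) and −0.13 for AT5G39130 (−0.75 to 0.48).

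AT5G38940 behaved unevenly in rlk7-3. Its TOLS2 arrays read 5.68, 5.32 and 6.90 and its control arrays 5.70, 5.42 and 5.65. One array, TOLS2 replicate 3, lay at the level of treated wild type and the other 2 at that of the controls (difference 0.37, −0.33 to 1.08, adjusted p = 0.84). TOLS2 replicate 3 was also the highest treated array of this gene in wild type (7.05) and on arrays labelled puchi-2 (7.31). The median change of the 9 genes was 0.18, beside 0.06 over all rows, and the groups of 1 gene, AT5G38930, did not overlap (3.77 to 3.91 against 3.99 to 4.05), as in 12.2% of all rows.

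The difference between the rlk7-3 and the wild-type response was tested directly and was called for 0 of 9 genes, against 0.383% of all rows. An unadjusted p under 0.05 was found for 3 of 9 genes and for 1828 of 17481 rows. The difference was −3.83 for AT5G39120 (SE 0.92, 95% interval −5.80 to −1.87, adjusted p = 0.121). For AT5G39110 it was −1.49 (−3.14 to 0.15, adjusted p = 0.516), for AT5G38940 −1.15 (−2.14 to −0.15, adjusted p = 0.399) and for AT5G39130 −1.10 (−1.97 to −0.23, adjusted p = 0.351). The wild-type arrays enter both this difference and the wild-type response. Without the replicate 1 arrays of all groups the difference of AT5G39120 was −4.08 and was called (adjusted p = 0.00934), with 2 arrays per group, and it was also called with arrays weighted by their quality (−3.94, adjusted p = 0.0256). The difference of AT5G39120 was called as well with the replicate number in the fit (limma adjusted p = 0.0134), which the main fit left out. Over 21 alternatives it ran from −4.45 to −3.33 (adjusted p from 0.00934 to 0.264).

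On arrays labelled puchi-2, TOLS2 raised 1 of the 9 genes, AT5G38940, where 1.6% of all rows were called. Its control arrays read 5.26, 5.41 and 5.48 and its TOLS2 arrays 6.91, 6.66 and 7.31, without overlap. The rise was 1.58 (SE 0.33, 95% interval 0.88 to 2.28, n = 3, adjusted p = 0.0244), a 2.99-fold change. Leaving out any 1 of the 6 arrays except TOLS2 replicate 2 ended the call (adjusted p from 0.064 to 0.102), and over 15 alternatives the adjusted p ran from 0.00339 to 0.243.

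The lower block gave higher means with TOLS2 on these arrays, with wide spread. AT5G39120 read 4.37, 5.00 and 4.97 in control and 5.08, 7.25 and 8.03 with TOLS2, a difference of 2.01 (0.62 to 3.40, adjusted p = 0.163). AT5G39110 read 5.25, 6.11 and 5.49 in control and 5.82, 7.18 and 8.50 with TOLS2, a difference of 1.55 (0.39 to 2.71, adjusted p = 0.208). In both genes TOLS2 replicate 1 lay close to the controls, above all of them for AT5G39120 and among them for AT5G39110. Without that array AT5G39120 changed by 2.86 (adjusted p = 0.0214) and AT5G39110 by 2.22 (adjusted p = 0.0425). That array was the lowest treated one of both genes. Each gene was called in only 1 of the 6 fits that left out 1 array labelled puchi-2. With the replicate number in the fit AT5G39120 was called (limma adjusted p = 0.0252) and AT5G39110 was not (0.105). Over all alternatives their adjusted p ran from 0.00836 to 0.459 and from 0.0425 to 0.562.

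The remaining genes on these arrays were not called. The difference was 0.46 for AT5G39130 and 0.45 for both AT5G39150 and AT5G39180. For AT5G39150 and AT5G39180 the highest values of all arrays, 2.58 and 2.64, came from TOLS2 replicate 3. AT5G38910 gave the lowest estimate of the cluster, −1.03 (−2.48 to 0.42, adjusted p = 0.599), from 7.57, 9.61 and 9.27 in control to 6.98, 8.19 and 8.17. The median change of the 9 genes was 0.45, beside −0.01 over all rows, and the groups of 2 genes did not overlap, as in 17.2% of all rows. An unadjusted p under 0.05 was found for 3 of the 9 genes and for 2215 of 17481 rows.

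The response on arrays labelled puchi-2 was not shown to differ from that in wild type for any of the 9 genes (0 called, 0 at an unadjusted p under 0.05, and 0% of all rows called). The difference was 0.06 for AT5G38940 (95% interval −0.93 to 1.05), −0.12 for AT5G39110 (−1.77 to 1.52), −1.03 for AT5G39120 (−2.99 to 0.94) and −0.51 for AT5G39130 (−1.38 to 0.36), each with an adjusted p of 1. The intervals are wide beside the wild-type changes themselves, so equal responses were not shown either. The 6 group means of AT5G39120, from highest to lowest, were 7.84 (wild type with TOLS2), 6.78 (puchi-2 with TOLS2), 4.81, 4.78 and 4.59 (controls of wild type, puchi-2 and rlk7-3) and 3.79 (rlk7-3 with TOLS2), and the arrays of each 2 groups next to each other in this order overlapped.

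Genes that follow each other among the 9 measured were also compared within arrays, by subtracting the level of one gene from that of the next and comparing this difference between TOLS2 and control arrays. This gave 8 pairs, of which AT5G38960 and AT5G39110 are 19 genes apart and join the blocks, in 3 genotypes. The 24 comparisons were tested by exact permutation (two-sided). With 3 arrays in each group such a p cannot go below 0.1, so none could pass 0.05. In wild type, 6 of the 8 pairs shifted without overlap between the groups (exact p = 0.1, 0.267 after Benjamini-Hochberg adjustment over the 24). The pairs share genes, and 4 of the 6 hold AT5G38940 or AT5G39120, which were called themselves. The others hold AT5G39110 or AT5G39130, whose own treated arrays did not overlap their controls either. Each shift is the change of one gene less that of the other, as given above, so the pairs add no separate evidence of a response. Of 16437 pairs of consecutive measured genes on all chromosomes, 18.2% shifted without overlap in wild type, 9.94% in rlk7-3 and 16.8% on arrays labelled puchi-2. AT5G38940 gained 1.45 on AT5G38930, and AT5G38960 lost ground to AT5G38940 (−1.54). AT5G39120 gained 1.36 on AT5G39110, from −1.62 ± 0.07 in control to −0.26 ± 0.14 with TOLS2 (SD, n = 3). AT5G39130 shifted by −2.07 against AT5G39120, AT5G39150 by −1.07 against AT5G39130, and AT5G39110 by 1.70 against AT5G38960 across the gap between the blocks.

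The same subtraction gave no separated pair in rlk7-3, where shifts ran from −0.98 to 0.66 and all 8 pairs overlapped. On arrays labelled puchi-2, 3 pairs were separated: AT5G38940 against AT5G38930 (1.97), AT5G38960 against AT5G38940 (−1.64) and AT5G39130 against AT5G39120 (−1.55), all of which hold AT5G38940 or AT5G39120. AT5G39120 shifted there by 0.46 against AT5G39110, with overlap. With TOLS2 in wild type, the difference between AT5G39120 and AT5G39110 had an SD of 0.14, where the single genes had 1.08 and 1.04, so both were low together on replicate 1 and high together on the others. On arrays labelled puchi-2 with TOLS2 these SDs were 0.41, 1.53 and 1.34. In rlk7-3 the difference did not vary less than both genes, with an SD of 0.65 beside 0.89 and 0.25 with TOLS2 and 0.43 beside 0.39 and 0.09 in control.

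Several genes of the cluster varied widely between replicates. The pooled SD within groups (12 degrees of freedom) was 0.92 for AT5G38910, 0.88 for AT5G39120 and 0.73 for AT5G39110, where the median over all tested rows was 0.16. Of 17481 rows, 3 had a larger SD than AT5G38910, 4 than AT5G39120 and 36 than AT5G39110. AT5G38940 (0.44), AT5G39130 (0.39), AT5G39180 (0.37), AT5G39150 (0.36) and AT5G38930 (0.35) also exceeded at least 94.9% of rows. Spread is larger among dim rows, and against rows of like level (within 0.5) AT5G38930, AT5G39130, AT5G39150 and AT5G39180 exceeded only 90.8% to 93.5%. AT5G38960 alone was ordinary, with 0.20, beside a median of 0.21 for rows within 0.5 of its mean level.

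**Figure D3:**
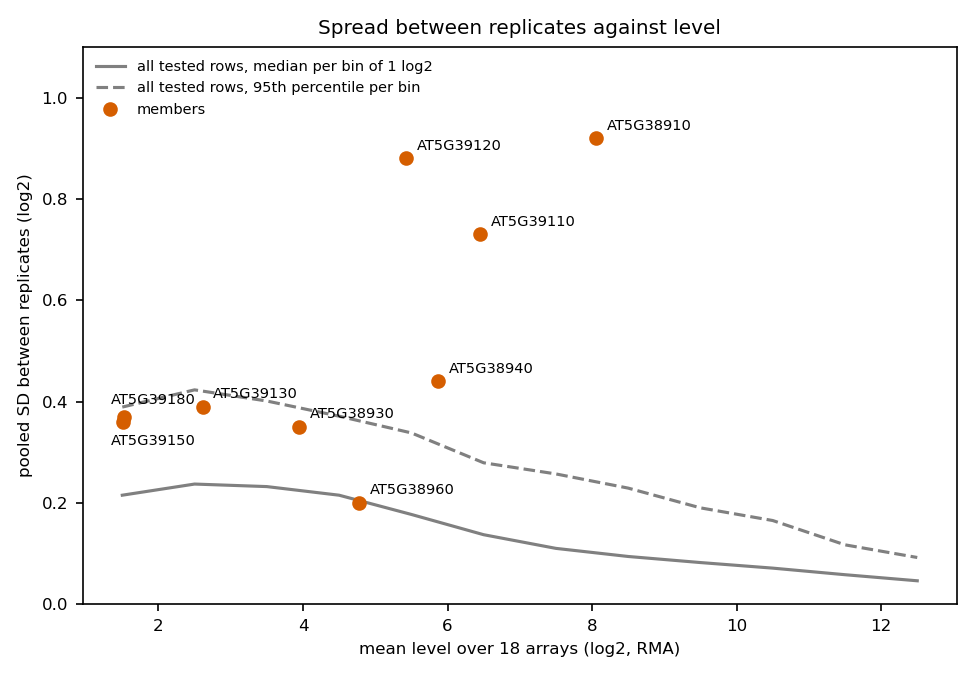
Pooled SD between replicates (vertical axis, log2) against mean level over 18 arrays (horizontal axis, log2) for the 9 genes, with the median and the 95th percentile of all tested rows in bins of 1 log2 as lines. AT5G38910, AT5G39120 and AT5G39110, with SDs of 0.92, 0.88 and 0.73, lie far above the 95th percentile, and AT5G38960 lies near the median.

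For most of these genes the spread was larger among treated arrays. Over the 9 TOLS2 arrays the pooled SD of AT5G39120 was 1.20, beside 0.34 over the 9 controls, and for AT5G39110 it was 0.99 beside 0.31. AT5G38940 gave 0.61 beside 0.15 and AT5G39130 0.51 beside 0.20. The median over all rows was 0.16 with TOLS2 and 0.14 without. AT5G38910 was variable in both, with 1.00 and 0.83, and AT5G38960 in neither, with 0.19 and 0.21. The model used 1 spread for all 6 groups of a gene.

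For AT5G38910, AT5G39120 and AT5G39110, the replicate 1 arrays carried much of that spread. AT5G38910 was lowest on the replicate 1 array in 6 of 6 groups, with differences of −2.35 to −0.76 from the mean of the other 2 arrays, a pattern that 2.94% of all rows share with replicate 1, whereas replicates 2 and 3 were lowest in all groups for 0.332% and 0.509% of rows. AT5G39120 was lowest on replicate 1 in 5 of 6 groups, with differences of −2.56 to −0.14 from the mean of the others, and AT5G39110 in 4 of 6. AT5G39180, in contrast, was lowest there in 1 of 6 groups. Without the replicate 1 arrays the pooled SD fell from 0.92 to 0.27 for AT5G38910, from 0.88 to 0.33 for AT5G39120 and from 0.73 to 0.46 for AT5G39110, while that of AT5G38940 was 0.58. The labels do not say what the replicates with number 1 share, and the part of such a difference in the TOLS2 response was not tested.

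Deviations from the group mean moved together in parts of the cluster. Over 18 arrays the deviations of AT5G39110 and AT5G39120 had a Pearson r of 0.90, those of AT5G39120 and AT5G39130 of 0.61, and those of AT5G39150 and AT5G39180 of 0.65. AT5G38910, in the upper block and not called with TOLS2, gave r = 0.79 with AT5G39120, whereas the upper-block neighbours AT5G38910 and AT5G38930 (0.11), AT5G38930 and AT5G38940 (0.10) and AT5G38940 and AT5G38960 (0.03) gave values near 0. Without replicate 1, over 12 arrays, r was 0.78 for AT5G39110 and AT5G39120 and 0.81 for AT5G39150 and AT5G39180, but 0.45 for AT5G38910 and AT5G39120 and −0.51 for AT5G39120 and AT5G39130. These correlations describe arrays that share their RNA and normalization for all genes. The probe sequences were not used here, so signal that a row may take from a neighbour's transcript was not tested.

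**Figure D4:**
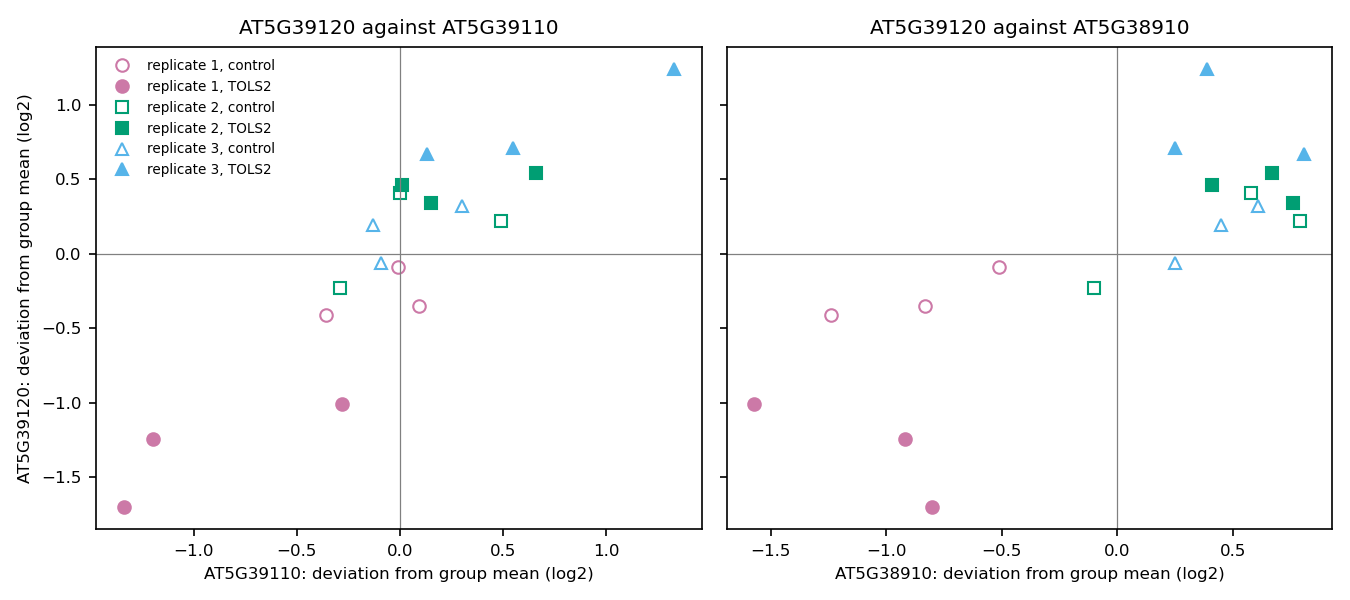
Deviation of AT5G39120 from its group mean (vertical axis, log2) against that of AT5G39110 (left) and AT5G38910 (right) on the 18 arrays, with colour and shape for the replicate number and filled symbols for TOLS2. All 6 replicate 1 arrays lie below 0 for AT5G39120 and for AT5G38910, and those with TOLS2 lie lowest for AT5G39120.

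Outside the cluster, the genes most like AT5G39120 were sought by Pearson correlation of levels over the 18 arrays among 16547 other genes. The closest that are no member were AT1G16260 (r = 0.945), AT1G71695 (0.940), AT1G30730 (0.935), AT1G21590 (0.934) and AT4G19920 (0.933). None of these was called in wild type, where their changes ran from 0.30 for AT1G71695 to 1.05 for AT1G30730 (adjusted p = 0.0572). Within the cluster AT5G39110 ranked 7 (r = 0.925) and AT5G39130 ranked 47 (r = 0.868), while AT5G38940, the other called gene, ranked 684 (r = 0.598). AT5G38910 (0.33), AT5G38960 (0.12) and AT5G38930 (−0.06) were least like it. Levels hold differences between groups and between replicates alike, so this likeness does not measure a shared TOLS2 response.

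No measured gene of a list of other germin-like loci was called with TOLS2. The list of 24 loci was written from general knowledge of the family and is not complete, and not all of its loci are annotated as germin-like in the tables used. Of these, 12 had a row of their own, and limma called 0 of 12 in each of the 3 TOLS2 comparisons. Of all rows, 1.84% were called in wild type, 0.00572% in rlk7-3 and 1.6% in puchi-2. An unadjusted p under 0.05 was found for 0 of the 12 genes in wild type, 1 in rlk7-3 and 1 in puchi-2. Their changes ran from −0.28 to 0.29 in wild type with a median of −0.01, from −0.25 to 0.37 in rlk7-3 and from −0.08 to 0.67 in puchi-2. The highest of these was AT1G18980, with estimates of 0.29 in wild type, 0.37 in rlk7-3 and 0.67 on arrays labelled puchi-2 (adjusted p = 0.0902). The 5 measured genes of another germin-like run, AT3G04150 to AT3G04200, gave −0.28 to 0.20 in wild type, at control levels of only 1.58 to 2.45. All 12 genes stood at 1.58 to 4.16 in wild-type controls, below AT5G39120 (4.81) and AT5G38940 (4.89). Their SEs in wild type ran from 0.12 to 0.22, beside 0.33 for AT5G38940 and 0.65 for AT5G39120. Whether dim rows hid a response was not tested, and a response particular to the cluster was not shown. AT5G38950, also listed, which lies between AT5G38940 and AT5G38960, gave −0.07 in wild type. The germin-like genes GLP6 (AT5G39100) and GER2 (AT5G39190), which lie at either end of the lower block, were not analysed here.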

How the data were processed

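Each probe set has 1 deposited log2 level per array, for which the submitters' processing notes name RMA, a method that corrects background, equalizes array distributions and combines probes. The sources used here name neither software version nor genome build. All 38408 rows of 18 arrays were read as deposited, and 17481 rows with at least 1 gene in the platform's annotation were tested. The RefSeq gene table (TAIR10.1) served for names and gene order only.

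Limma 3.58.1 in R 4.3.3 fitted 6 group means (lmFit and eBayes, 12 residual degrees of freedom). The 7 comparisons were the TOLS2 response of each genotype (3), each mutant's response less that of wild type (2) and each mutant's controls less those of wild type (2). Adjusted p is Benjamini-Hochberg over the tested rows, two-sided, with no p adjusted over the cluster alone. The fit was tested on simulated data with the same spread in all groups of a row and no shift by replicate number. That test therefore does not cover the unequal spread and the replicate differences seen in these genes. All measured members were named. Members, lists and tests were chosen with earlier results of these data known.

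Results were recomputed with arrays centred or quantile normalized again, array weights, a replicate block, a robust prior with intensity trend, other row filters, only the compared groups, and without each array or all replicate 1 arrays. For arrays, their number limits the precision. Promoter and protein sequences were not analysed here.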

Additional observations from a re-analysis of the deposited data

How the results depend on the processing

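Of the 7 counts of called members, those for rlk7-3 with TOLS2, for the puchi-2 difference in response and for both genotype comparisons stayed at 0 under all alternatives run. In wild type with TOLS2 the count of 2 became 4 with array weights, 0 with only the wild-type arrays, 0 among brighter rows (where AT5G38910 and AT5G39110 alone were tested) and 0 to 4 when 1 array was left out. On arrays labelled puchi-2 the count of 1 became 3 with array weights, 2 with the replicate block, 0 among brighter rows and 0 to 2 with 1 array left out. The rlk7-3 difference went from 0 to 1 (AT5G39120) under array weights, under the replicate block and when all replicate 1 arrays were left out.

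The numbers share no stated batch. Same-numbered TOLS2 and control arrays had deviations that correlated between 0.00 and 0.27, with 6 of 9 TOLS2 arrays closest to their own number. Over all groups, same-numbered arrays had a median correlation of 0.10 and others of −0.07. The 3 replicate 1 pairs (0.17, 0.27 and 0.13) lay above all other-numbered values of their genotype. On the second main axis of variation between arrays (11% of the variance), replicate 1 arrays lay from 5 to 48. Replicate 2 arrays lay there from −11.8 to 5.5 and replicate 3 arrays from −25.6 to −3.3. Arrays thus differed by number in the data, although the labels state no pairing, and the main fit left the number out. With the replicate block AT5G39120 had adjusted p = 0.00183 in wild type, 0.0252 on arrays labelled puchi-2 and 0.0134 for the rlk7-3 difference. Without the replicate 1 arrays the genes called changed: in wild type AT5G39110, AT5G39120 and AT5G39130 were called (3) and AT5G38940 was not (1.56, adjusted p = 0.215), and in puchi-2 AT5G39120 was called (adjusted p = 0.00836) and AT5G38940 was not (1.54, 0.243). Why these calls moved was not tested. Of 1067 changes recomputed, 1034 stayed on the same side of the threshold, 18 lost a call and 15 gained one. Most of the 1067 belonged to changes not called in the main fit. The calls of AT5G38940 and AT5G39120 in wild type and of AT5G38940 in puchi-2 each held in only 9 of 15 alternatives. All 18 losses were theirs. In 51 of the 1067 the sign differed, all of values not called. The dim rows of AT5G39150 and AT5G39180 limit what could be seen there.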
